A study of Mus musculus with 4 samples.

Results

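A set of 87 protein-coding genes had lower RNA levels in primary mouse embryonic fibroblasts given an siRNA against Dyrk2 than in both siRNA-free and control-siRNA wild-type cells, and was not lower to the same degree in Dyrk2-knockout cells. The set was chosen from the measured levels themselves. A gene entered if it was annotated as protein coding in GENCODE M21 and reached 5 FPKM (fragments per exonic kilobase, scaled to 1e+06 fragments assigned to genes) in at least 1 library. Its log2 ratio of FPKM + 1 also had to be at most -0.585 for siDyrk2 against siNeg, at most -0.4 for siDyrk2 against wild type and above -0.3 for knockout against wild type. Of 55573 gene identifiers in the files, 7480 were protein coding and reached 5 FPKM, and 168 of these (2.25%) met the siNeg limit, 439 (5.87%) the wild-type limit and 6883 (92.0%) the knockout limit. Both siDyrk2 limits were met by 151 (2.02%) and all 3 by 91 (1.22%). Prkacb, Gpc3, Sparc and Atp10a were then left out by name, which gave the 87 genes described here.

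The study examined how DYRK2, a protein kinase, acts on Hedgehog signalling through the transcription factors GLI2 and GLI3. It measured polyA-selected RNA by stranded sequencing in primary fibroblasts, cells taken from mouse embryos and used without immortalisation. The libraries were wild-type cells with siDyrk2 (an siRNA against Dyrk2), Dyrk2-KO cells without siRNA, wild-type cells with siNeg (a negative-control siRNA) and wild-type cells without siRNA. Cells of all 4 libraries had been kept for 24 h with SAG at 100 nM, which activates Smoothened and with it Hedgehog signalling. With 1 library in each group, no label tells if separate embryos were used or which allele the knockout carries. Sequences, number and dose of the siRNAs are not given in the sources available. There is therefore no replicate error for any ratio below. Since all 4 libraries took part in the choice of the genes, their levels are given as a description, without a test. Comparisons of siDyrk2 with siNeg and with wild type share the siDyrk2 library, and those of siDyrk2 and of the knockout with wild type share the wild-type library.

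An siRNA is a short RNA duplex, 1 strand of which is loaded into an Argonaute protein and guides it to complementary mRNA, which is cut. A guide strand is also known to lower other mRNAs, mostly through pairing of the short seed near its 5′ end with matching stretches of 3′ untranslated regions (3′ UTRs), much as a microRNA does. A knockout of the same gene brings no guide strand into the cell. For this reason genes that differ between the knockdown and the knockout of 1 gene are commonly inspected for shared 3′ UTR sequence.

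Dyrk2 was at 0.81 FPKM with siDyrk2 and 0.57 FPKM in the knockout, against 7.06 FPKM with siNeg and 6.59 FPKM in wild type, so both ways of lowering it were visible in the RNA. Gli1, a GLI target, was at 2.25 FPKM with siDyrk2 and 0.24 FPKM in the knockout, against 30.17 FPKM with siNeg and 28.81 FPKM in wild type. The estimated depth was 20 M to 23.9 M fragments (M, 1e+06) per library, and the 87 genes had 177 to 9437 estimated fragments each per library. Fibroblast markers were abundant in every library, and the summed level of 7 epithelial markers lay between 1.29 and 1.75 FPKM. Summed macrophage markers were at 379 FPKM with siDyrk2, 531 FPKM in the knockout, 305 FPKM with siNeg and 264 FPKM in wild type, and their part in the levels below was not tested.

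The gene lowest with siDyrk2 relative to siNeg was Ssr1 (ENSMUSG00000021427), which encodes the alpha subunit of the translocon-associated protein complex at the endoplasmic reticulum. Its level was 8.92 FPKM with siDyrk2, 26.4 FPKM in the knockout, 33.23 FPKM with siNeg and 29.24 FPKM in wild type. The 3 libraries without siDyrk2 lay close together and siDyrk2 stood far below them. The log2 ratio was -1.79 for siDyrk2 against siNeg, -1.61 for siDyrk2 against wild type and -0.14 for knockout against wild type. As a ratio of the deposited values, siNeg was 3.73 times siDyrk2, with a 95% interval of 3.54 to 3.92 that covers counting error only.

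Cmtm3, which encodes a membrane protein with a MARVEL domain, was at 17.0 FPKM with siDyrk2, 56.96 FPKM in the knockout, 56.86 FPKM with siNeg and 53.75 FPKM in wild type. Tmx3, which encodes a transmembrane disulfide isomerase of the endoplasmic reticulum, was at 3.31 FPKM with siDyrk2, 8.94 FPKM in the knockout, 10.16 FPKM with siNeg and 9.64 FPKM in wild type. For both genes the knockout level was within 0.1 of wild type on the log2 scale, while the siDyrk2 level was 31.6% (Cmtm3) and 34.3% (Tmx3) of wild type. Ptgfrn, which encodes an immunoglobulin-family partner of the tetraspanins CD9 and CD81, was at 17.65 FPKM with siDyrk2, 31.35 FPKM in the knockout, 45.14 FPKM with siNeg and 37.24 FPKM in wild type. Cnot6, which encodes a deadenylase subunit of the CCR4-NOT complex, was at 8.5 FPKM with siDyrk2, 14.3 FPKM in the knockout, 21.86 FPKM with siNeg and 17.16 FPKM in wild type. In Ptgfrn and Cnot6 the knockout was also the second lowest library, with log2 ratios to wild type of -0.24 and -0.25 that lie near the limit of -0.3. These 5 genes were the ones whose log2 ratio to siNeg was lowest in the set. In bulk RNA, fewer cells of a type and less RNA per cell cannot be told apart.

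**Figure D1:**
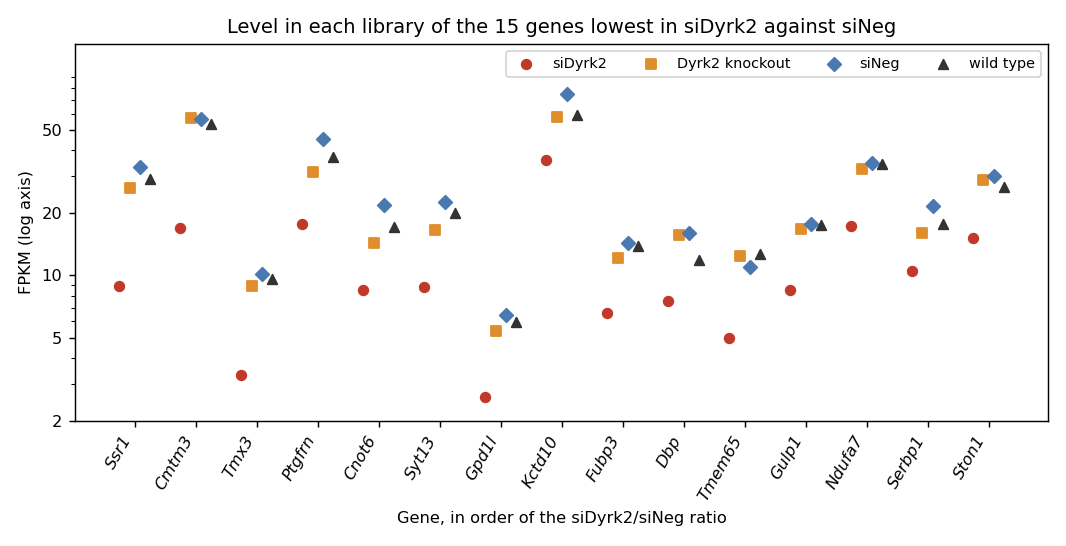
FPKM on a log axis of the 15 genes lowest in siDyrk2 against siNeg, with 1 point for each library (siDyrk2, Dyrk2 knockout, siNeg and wild type). The siDyrk2 point lies below the other points of its gene in all 15 genes, for example 8.92 FPKM for Ssr1 against 26.4 FPKM in the knockout, 33.23 FPKM with siNeg and 29.24 FPKM in wild type.

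The 5 genes belong to families or complexes whose other members were measured too. Of 25 genes of the translocon and of signal peptide processing, 1 was at least 1.5-fold lower with siDyrk2 than with siNeg (2.1% of genes at 1 FPKM or more are), and this was Ssr1 itself. The other subunits of its complex had log2 ratios to siNeg of -0.11 (Ssr2), 0.24 (Ssr3) and -0.03 (Ssr4). Srp14, of the signal recognition particle, was at 59.12 FPKM with siDyrk2 against 30.2 FPKM with siNeg, but wild type was at 55.3 FPKM, so the siNeg library was the one that differed. Among 16 disulfide isomerases and oxidases of the endoplasmic reticulum, 1 was at least 1.5-fold lower with siDyrk2 than with siNeg, namely Tmx3. Its paralogues Tmx1, Tmx2 and Tmx4 had ratios of 0.08, -0.04 and -0.25. Cmtm4, Cmtm6 and Cmtm7 had ratios of -0.19, 0.07 and 0.27, and the other 5 CMTM genes were below 1 FPKM in every library.

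Of 15 CCR4-NOT and associated genes, Cnot6 alone was at least 1.5-fold lower with siDyrk2 than with siNeg or than wild type. Its closest paralogue Cnot6l was at 4.48 FPKM with siDyrk2, 5.03 FPKM in the knockout, 5.99 FPKM with siNeg and 5.39 FPKM in wild type. The siDyrk2 library was the lowest for Cnot6l as well, though by less. Among 8 tetraspanins and partners, Ptgfrn had the lowest ratio to siNeg, and the next was Igsf3, which encodes a related immunoglobulin-family protein, at -0.44. Median log2 ratios of siDyrk2 to siNeg were -0.03 for the translocon list, -0.04 for the disulfide isomerases, -0.02 for CCR4-NOT and 0.04 for the tetraspanin list, beside 0.02 over all 7480 genes. Of 19 genes of the unfolded protein response, 0 were at least 1.5-fold different in either direction between siDyrk2 and siNeg, which is near the shares of 2.1% lower and 2.44% higher over genes at 1 FPKM or more.

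A 7-base word, GTAACAA, read in the direction of the mRNA, was present in the longest annotated 3′ UTR of 54 of the 87 genes (62.1%). In all tested genes with transcript sequence the share was 611 of 7477 (8.17%). Shares of all 16384 words of 7 bases were compared in this way, and this word had the largest difference between the set and the tested genes. The word was picked for that difference, so its share in the set is a description. Its density was 0.268 copies per kilobase of 3′ UTR in the set and 0.0559 in the tested genes. Its reverse complement, TTGTTAC, was in the 3′ UTR of 26 of the 87 genes (29.9%) and of 888 of the 7477 (11.88%). The 8-base form GTAACAAA was present in 41 of the 87 (47.1%) and in 229 of the 7477 (3.06%). Of 1738 mature mouse microRNAs in RefSeq, 0 have a seed (bases 2 to 8) that is complementary to the 7-base word.

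The windows below show the word in 3′ UTRs of 8 of the genes that were lowest with siDyrk2 or carry its longest match to Dyrk2, because 26 bases let the shared stretch be compared with its surroundings. For Gpd1l and Zfp449, which hold 2 copies, the copy in 8-base form is shown. The last window is the single place where the word occurs in the Dyrk2 mRNA. Capitals mark the 7-base word, with the next A in capitals where the 8-base form is complete. Each is written 5′ to 3′ along the mRNA, from the GENCODE M21 transcripts on GRCm38.
Ssr1, chr13:37979547-37979572 (minus strand): tgcttttctaaaGTAACAAAtttggg
Cmtm3, chr8:104347519-104347544 (plus strand): tacaaaaacaatGTAACAAAtggtct
Ptgfrn, chr3:101043131-101043156 (minus strand): actttctgatatGTAACAAtcgagtg
Cnot6, upstream copy, chr11:49674607-49674632 (minus strand): gaaggccagctgGTAACAAAgctgca
Cnot6, middle copy, chr11:49671745-49671770 (minus strand): tttaccattcatGTAACAAAacccag
Cnot6, downstream copy, chr11:49671637-49671662 (minus strand): tatggactggtgGTAACAAgggcttt
Gpd1l, chr9:114900406-114900431 (minus strand): ctctgtacatatGTAACAAAgagtta
Fubp3, chr2:31616627-31616652 (plus strand): ttaggtggtaatGTAACAAAttcttt
Ndufa7, chr17:33838271-33838296 (plus strand): gtgacctaatttGTAACAAAtatata
Zfp449, chrX:56365287-56365312 (plus strand): taatggaagataGTAACAAAacataa
Dyrk2, coding sequence, chr10:118861052-118861077 (minus strand): tcgaggataataGTAACAAAaggaca

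The Ssr1 window lies in its longest annotated 3′ UTR and not in that of the transcript with the longest coding sequence. The bases around the word differ from gene to gene. Tmx3 also carries the 8-base form. Kctd10 and Gulp1, with ratios to siNeg of -1.03 and -0.98, hold the 7-base word only, and their windows are not shown. In the Dyrk2 mRNA, 6129 bases long in the transcript used, the word stands once, in its 8-base form, at base 287 of the coding sequence. Its reverse complement, TTGTTAC, is also present in the Dyrk2 mRNA. Counting either strand, the Dyrk2 mRNA holds 7784 of the 16384 words of 7 bases seen in 3′ UTRs. For words of 8 bases it holds 10531 of 65508. Matches to Dyrk2 are therefore common for words this short, and nothing is read from this one. The 3′ UTR of Dyrk2 holds none of the forms of the word. The longest run of bases that a copy of the word in the set shares with the Dyrk2 site was 12, in Zfp449, and in Ssr1 it was 9. Over whole mRNAs, the longest run shared with Dyrk2 in the same sense had a median of 13 bases in the set and 13 bases in the tested genes, and 66.7% and 51.0% had a run of at least 13. For the reverse complement of Dyrk2 the medians were 13 and 12 bases and the shares 59.8% and 48.2%. The median exonic length was 6037 bases in the set and 4310 bases in the tested genes, and its part in these shares was not tested. A match is a description of letters in the annotated transcript, and whether the siRNA used here holds a complementary stretch was not tested.

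Copies per gene and position varied. The 87 genes held 69 copies in their 3′ UTRs, with 42 genes holding 1 copy, 10 genes holding 2 and 2 genes holding 3 or more. Those 2 genes were Cnot6 with 3 copies and Trove2, which encodes the RNA-binding protein Ro60, with 4 copies. Trove2 was at 3.55 FPKM with siDyrk2, 6.86 FPKM in the knockout, 7.5 FPKM with siNeg and 6.97 FPKM in wild type. Of the 10 genes with the lowest ratio to siNeg, 8 held the 7-base word in the 3′ UTR. Of the lowest 20 and 30, 14 and 21 did. The share was 62.1% over the set and 8.17% over tested genes. The word was picked in this set and the rule used this ratio, so these counts are a description. The other 33 genes had no copy in the 3′ UTR. Among them were 4 with TAACAAA, 7 with TAACAA alone and 22 with none of these forms. Of the 33, Ston1, Tpst1, Ric1 and Fam126a had the 7-base word in the coding sequence. Here and below, a gene holds a form of the word if its 3′ UTR does, unless another region is named. The median log2 ratio to siNeg was -0.74 for the 41 genes with the 8-base form, -0.83 for the 13 with the 7-base word only and -0.71 for the 22 with none. The rule had cut this ratio at -0.585 in every class, so nothing is read from the nearness of these medians.

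**Figure D2:**
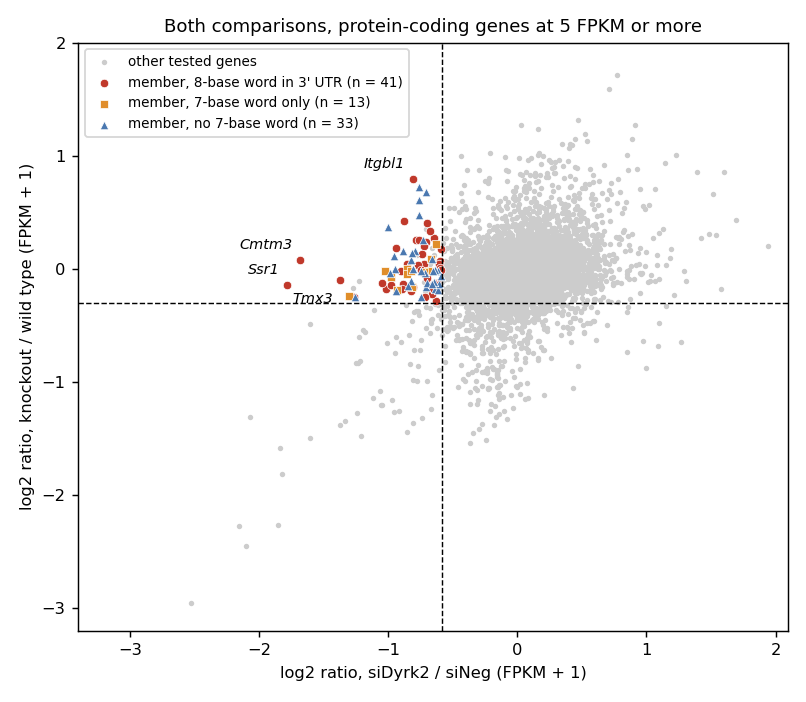
Log2 ratio of siDyrk2 to siNeg (horizontal) and of knockout to wild type (vertical) for the tested genes with transcript sequence, on FPKM + 1. The 87 chosen genes are coloured by the form of the word in their 3′ UTR (41 with 8 bases, 13 with 7 bases only, 33 with neither), dashed lines are 2 of the limits that chose them, and 3 genes lie outside the axes.

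Across all tested genes the form of the word went with the siDyrk2 ratios in steps. The median log2 ratio of siDyrk2 to siNeg was -0.30 for the 229 genes with the 8-base form, -0.11 for 382 genes with the 7-base word only, -0.04 for 614 genes with TAACAAA, -0.01 for 783 genes with TAACAA alone and 0.04 for 5469 genes with none. Medians against wild type followed the same steps, at -0.29, -0.12, -0.04, 0.01 and 0.05, in a comparison that shares the siDyrk2 library. In the knockout against wild type the medians of the same classes were -0.02, -0.04, -0.02, -0.03 and -0.03. In siNeg against wild type they were 0.01, 0.02, 0.00, 0.01 and 0.01. The steps were thus seen in both comparisons that hold siDyrk2, and the classes lay within 0.02 of each other in the knockout and siNeg comparisons with wild type.

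These medians include the 87 genes, which the rule had cut on the same ratios. Without them the medians of siDyrk2 against siNeg were -0.23, -0.10, -0.04, -0.01 and 0.05, in the same order of classes. Of the remaining 188 genes with the 8-base form, 76.6% were below 0 in siDyrk2 against siNeg, beside 40.8% of 5447 genes with no form. In the knockout against wild type these shares were 55.9% and 56.6%. Leaving the 87 genes out therefore reduced the step but did not remove it. Prkacb, Atp10a, Sparc and Gpc3 met the rule's limits too, were left out only by name, and stay in the values given without the 87 genes. The classes were not matched for 3′ UTR length or GC content. The median 3′ UTR had 2555 bases in the 188 genes and 1146 bases in all genes outside the set. Median 3′ UTR GC content was 39.9% and 44.9%, and the part of these differences in the step was not tested. The word itself had been picked with the 87 genes and these libraries, so the step is a description and not an independent check.

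**Figure D3:**
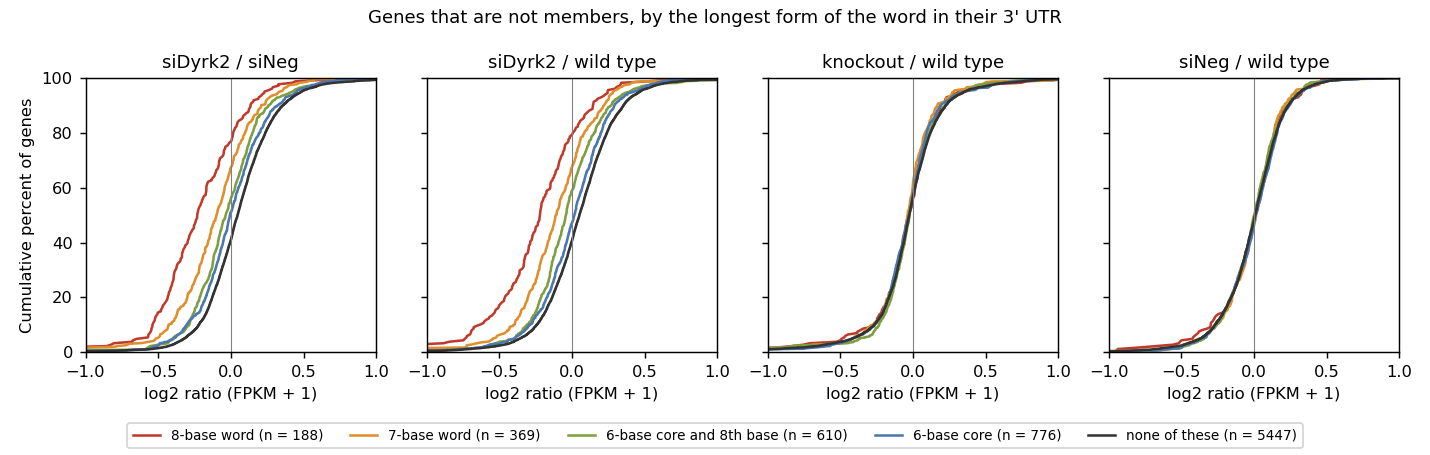
Cumulative percent of genes (vertical) by log2 ratio of FPKM + 1 (horizontal) in 4 comparisons, for 7390 genes outside the set, by the longest form of the word in the 3′ UTR. The 6-base core is TAACAA, and with the 8th base it is TAACAAA. In both siDyrk2 panels the 8-base curve lies farthest to the left (median -0.23 against siNeg and -0.22 against wild type), while the curves overlie each other for the knockout and siNeg against wild type.

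Of the 229 genes with the 8-base form, 41 are among the 87, whose ratio to siNeg the rule had cut. Of the 188 others, 9 (4.79%) were at least 1.5-fold lower with siDyrk2 than with siNeg and 2 (1.06%) at least 1.5-fold higher. The 9 include Atp10a (-1.23) and Prkacb (-0.82), which met all limits of the rule and were left out only by name. Of the 5447 genes outside the set with no form, 47 (0.863%) were lower and 162 (2.97%) higher. The 47 include Gpc3 (-1.27), also left out only by name. By number of copies, and again without the 87 genes, the median ratio to siNeg was 0.03 for 6833 genes without the 7-base word, -0.13 for 520 genes with 1 copy and -0.22 for 36 genes with 2. The 1 gene outside the set with more copies had a ratio of 0.21. Words present in at least 50 genes could also be ordered by the mean ratio of their genes. Without the 87 genes, GTAACAA (557 genes) had the lowest mean of 15855 such words for siDyrk2 against siNeg, at -0.15. The next word, CGATACA (74 genes), was at -0.14. For siDyrk2 against wild type GTAACAA stood at place 5, at -0.16, and the lowest, GTACGAT, was at -0.19. For the knockout against wild type GTAACAA stood at place 2191. This word had been picked through genes chosen by these same ratios, so its places are a description and not an independent check.

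Position in the mRNA was compared as well. Among genes with no form of the word in the 3′ UTR, 72 had the 8-base form in the coding sequence, with a median ratio to siNeg of -0.12. Of these 72 genes, 0 were in the set, beside 0.402% of all genes with no form in the 3′ UTR, so few could be. Fam126a was the 1 gene of the set with the 7-base word in its coding sequence and no form of it in the 3′ UTR. Where the 8-base form was in the 3′ UTR, it lay at a median of 49.6% of the UTR's length in the 41 chosen genes and 65.0% in the other 188. The 30 bases on each side had a median A and T content of 66.7% in the chosen genes and 63.3% in the others. The median distance to the nearest end of the UTR was 386 bases in the chosen genes and 536 bases in the others.

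Long UTRs hold more words by length alone, and the chosen genes had long UTRs. Their median 3′ UTR was 2648 bases, against 1159 bases in the tested genes, while the median coding length was 1260 bases and 1269 bases. Median 3′ UTR GC content was 40.4% in the set and 44.8% in the tested genes. Within each class of UTR length the share with the word was higher in the set than among the other tested genes. The word had been picked for its larger share in these same genes, so the shares by length are a description. It was 75% (12 of 16) against 6.3% for UTRs from 1000 to under 2000 bases and 73.7% (14 of 19) against 24.8% for UTRs of 4000 bases or more. In the shortest class, under 500 bases, 2 of 8 genes of the set held the word, against 24 of 1810 others.

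**Figure D4:**
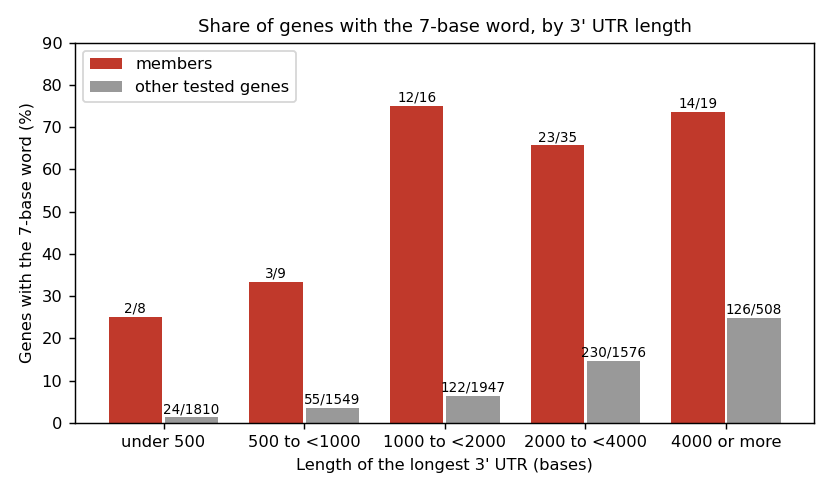
Percent of genes whose longest 3′ UTR holds the 7-base word (vertical) by length of that UTR in bases (horizontal), for the 87 chosen genes and the other tested genes, with counts above the bars. The share is higher in the chosen genes in each of the 5 length classes, and rises with length among the others, reaching 24.8% at 4000 bases or more. The word had been picked for its larger share in the chosen genes.

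The share was also compared with gene groups defined by the same limits. A group of 60 genes that met both siDyrk2 limits and were at or below -0.3 in the knockout against wild type held the word in 13 (21.7%). A group of 64 genes that were higher with siDyrk2 by the same limits with signs turned, and not higher in the knockout, held it in 1 (1.6%). Over all tested genes the share was 8.17%. The median 3′ UTR was 2006 bases in the 60 genes and 1128 bases in the 64, against 2648 bases in the set. The part of UTR length in these shares was not tested. Of the 4 genes left out by name, Atp10a and Prkacb carry the 8-base form and Sparc the 7-base word, while Gpc3 carries none.

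With siDyrk2 as the lowest of the 4 libraries in 87 of 87 genes, the set is uniform in what its rule required, and 24.4% of tested genes have siDyrk2 as the lowest library. The median log2 ratio was -0.76 for siDyrk2 against siNeg and -0.73 against wild type, beside 0.02 and 0.02 over all tested genes. At least 2-fold lower were 10 genes against siNeg (0.508% of tested genes are) and 19 against wild type (0.722% of tested genes are), with 5 genes in both. These counts follow from the rule. For 87 of 87 genes the counting interval of each siDyrk2 ratio lay below equality, but such intervals do not include differences between cultures. All 87 genes passed the 5 FPKM filter by definition, and 65 did so in every library.

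In the knockout against wild type the median ratio of the set was -0.02 and that of the tested genes -0.03. In 35 genes the knockout was above wild type and in 52 below, beside 42.6% of tested genes above. In 34 genes it lay within 0.1 of wild type on the log2 scale. At least 1.5-fold higher were 4 genes (1.94% of tested genes are), namely Itgbl1, AW551984, Tmem200b and Egfl6, and 0 genes were 1.5-fold lower (2.73% of tested genes are), which the rule had barred. Between the control libraries, siNeg was above wild type in 50 of 87 genes, beside 51.8% of tested genes, and the median ratio was 0.04. The rule set a stricter limit against siNeg (-0.585) than against wild type (-0.4), which favours genes with siNeg above wild type. At least 1.5-fold lower with siNeg than in wild type were Bche and Chrdl1 (1.5% of tested genes are), so for these genes the controls themselves stood apart.

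The limits cut through a continuous range. Just inside the siNeg limit stood Tmem165, Lrp6 and Snx25, at -0.593, -0.592 and -0.591, and just outside it Abi2, Dnm1 and Zfp652, at -0.584, -0.582 and -0.577. Just inside the wild-type limit stood Tmem200b, Ipo7 and Larp4b, at -0.435, -0.43 and -0.428, and just outside it Ppp1r3c, Nup50 and Maml1, at -0.369, -0.35 and -0.343. In the knockout, Etv6, Ppp1r13b and Syt13 were just inside at -0.287, -0.252 and -0.251. Fbn2, Smad3 and Slc39a10 were just outside at -0.314, -0.316 and -0.32.

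The 87 genes were sorted by known role after their values had been seen, into secretory pathway and membrane traffic (13 genes), RNA binding, translation and decay (9), cell surface, matrix and secreted factors (18), transcription and chromatin (11), intracellular signalling and ubiquitin ligases (17), metabolism and mitochondria (9) and other (10). They lie on 20 chromosomes, and 5 pairs lie within 1 Mb of each other, of which Etv6 and Lrp6 are the nearest.

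**Figure D5:**
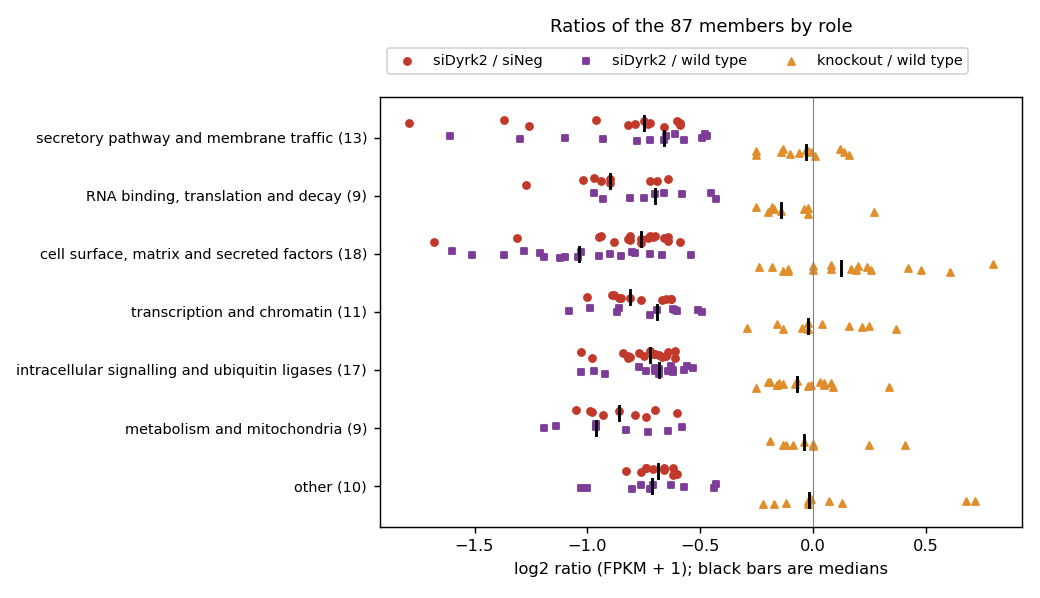
Log2 ratios of FPKM + 1 (horizontal) of each of the 87 genes by role (vertical, with gene numbers), for siDyrk2 against siNeg, siDyrk2 against wild type and knockout against wild type, with black bars for medians. The siDyrk2 points lie to the left of 0 by the rule, and the knockout points lie on both sides of 0, with medians between -0.14 (RNA binding) and 0.12 (cell surface).

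In the secretory pathway group, besides Ssr1 and Tmx3, the lowest was Syt13, which encodes a synaptotagmin-family membrane protein. It was at 8.82 FPKM with siDyrk2, 16.63 FPKM in the knockout, 22.49 FPKM with siNeg and 19.98 FPKM in wild type, and its 3′ UTR holds TAACAAA but not the 7-base word. Ston1, which encodes an endocytic adaptor, was at 15.06 FPKM with siDyrk2, 28.91 FPKM in the knockout, 30.18 FPKM with siNeg and 26.56 FPKM in wild type. The siDyrk2 library was apart from the other 3 in both genes, with the knockout slightly above wild type in Ston1 and below it in Syt13. Tmed2, a cargo receptor of early secretory vesicles, Stx16, a SNARE of the trans-Golgi, and Rab14, an endosomal small GTPase, had ratios to siNeg of -0.73, -0.72 and -0.60. Over the 13 genes the median ratio to siNeg was -0.75, and 6 held the 7-base word in the 3′ UTR.

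Among RNA-binding factors, Fubp3, which encodes a single-stranded nucleic acid binding protein, was at 6.59 FPKM with siDyrk2, 12.16 FPKM in the knockout, 14.37 FPKM with siNeg and 13.91 FPKM in wild type. Serbp1, which encodes an mRNA- and ribosome-binding protein, was at 10.5 FPKM with siDyrk2, 15.92 FPKM in the knockout, 21.6 FPKM with siNeg and 17.64 FPKM in wild type. Dcp2, which encodes the catalytic subunit of mRNA decapping, was at 5.5 FPKM with siDyrk2, 7.47 FPKM in the knockout, 11.46 FPKM with siNeg and 8.71 FPKM in wild type. In Serbp1 and Dcp2 siNeg was the highest library, so the ratio to siNeg was lower than that to wild type. The remaining genes of this group, Cnot6, Trove2, Purb, Prrc2b, Larp4b and Cpeb1, had ratios to siNeg between -1.27 and -0.64. Cpeb1, which encodes a regulator of cytoplasmic polyadenylation, was higher in the knockout than in wild type, at 0.27. The median of this group was -0.90 for siDyrk2 against siNeg and -0.70 against wild type, with 0.23 for siNeg against wild type, and 7 of its 9 genes held the 7-base word.

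In the cell surface and matrix group the median log2 ratio was -0.76 for siDyrk2 against siNeg and -1.04 against wild type, with 0.12 for the knockout and -0.17 for siNeg against wild type. Bche, which encodes butyrylcholinesterase, was at 1.31 FPKM with siDyrk2, 7.83 FPKM in the knockout, 3.25 FPKM with siNeg and 5.6 FPKM in wild type. Chrdl1, which encodes an extracellular antagonist of bone morphogenetic proteins, was at 3.42 FPKM with siDyrk2, 14.96 FPKM in the knockout, 6.48 FPKM with siNeg and 10.45 FPKM in wild type. In these genes the order of levels was siDyrk2, siNeg, wild type and knockout from low to high. The same order held for Egfl6, a secreted protein with EGF-like repeats, at 18.52 FPKM with siDyrk2, 63.93 FPKM in the knockout, 32.02 FPKM with siNeg and 41.5 FPKM in wild type. It held again for Abi3bp, a matrix protein, at 9.07 FPKM with siDyrk2, 26.13 FPKM in the knockout, 15.48 FPKM with siNeg and 21.97 FPKM in wild type. Both cultures with an siRNA were thus lower than both without one in these 4 genes. This order held in 10 of the 18 genes of the group and in 17 of the 87 (19.5%). The rule had already placed siDyrk2 lowest in the 87, and among the 1826 tested genes with siDyrk2 lowest the same order held in 477 (26.1%), so it is not more common in the set.

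Ntn1, which encodes the secreted guidance factor netrin-1, was at 5.76 FPKM with siDyrk2, 15.46 FPKM in the knockout, 12.04 FPKM with siNeg and 15.44 FPKM in wild type. Itgbl1, which encodes a secreted protein with integrin-beta-like repeats, was at 13.83 FPKM with siDyrk2, 43.88 FPKM in the knockout, 25.01 FPKM with siNeg and 24.84 FPKM in wild type. The controls of Itgbl1 were alike, with siDyrk2 below and the knockout above them. Penk, the precursor of enkephalin peptides, and Sspn, sarcospan of the dystrophin complex, had ratios to wild type of -1.21 and -1.10. Igf1, an insulin-like growth factor, Tgfbr3, a co-receptor for TGF-beta ligands, and Lrp6, a Wnt co-receptor, had ratios to siNeg of -0.82, -0.66 and -0.59. Of the 18 genes, 8 held the 7-base word, and of the 4 ordered as described above, Bche and Abi3bp hold the 8-base form and Chrdl1 and Egfl6 TAACAA alone. Summed over 10 fibroblast markers, mostly matrix genes, the level was 6720 FPKM with siDyrk2, 8930 FPKM in the knockout, 8070 FPKM with siNeg and 8270 FPKM in wild type. Single markers went both ways in siDyrk2 against siNeg, with 4 above 0 and 6 below. At least 1.5-fold higher were 2 (Vim and Pdgfrb), and 0 were 1.5-fold lower. Col1a1, the most abundant of them, was at 2376.9 FPKM with siDyrk2 and 3207.77 FPKM with siNeg. The part of these markers in the group's levels was not tested.

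In the transcription group, Dbp, which encodes a circadian transcription factor, was at 7.52 FPKM with siDyrk2, 15.69 FPKM in the knockout, 16.05 FPKM with siNeg and 11.91 FPKM in wild type. Nr1d2, another clock component, was at 7.72 FPKM with siDyrk2, 13.8 FPKM in the knockout, 15.07 FPKM with siNeg and 12.29 FPKM in wild type. The 2 clock genes had siNeg as the highest library and the knockout above wild type. Neither holds the 7-base word, and exons of Dbp overlap Sphk2 on the opposite strand. Wwtr1, which encodes the Hippo-pathway coactivator TAZ, was at 24.32 FPKM with siDyrk2, 53.65 FPKM in the knockout, 41.88 FPKM with siNeg and 44.8 FPKM in wild type. Gtf3c4, a subunit of transcription factor IIIC, and Zfp449, a zinc-finger protein, had ratios to wild type of -0.99 and -1.08. The word was in 8 of the 11 genes.

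In the signalling group, Kctd10, which encodes an adaptor of the CUL3 ubiquitin ligase, was at 35.98 FPKM with siDyrk2, 58.12 FPKM in the knockout, 74.39 FPKM with siNeg and 58.99 FPKM in wild type. Ppp2cb, a catalytic subunit of protein phosphatase 2A and the gene with the highest mean level in the set, was at 41.91 FPKM with siDyrk2, 67.6 FPKM in the knockout, 69.92 FPKM with siNeg and 65.41 FPKM in wild type. The controls and the knockout of Ppp2cb lay close together, above siDyrk2. Gulp1, an adaptor for the engulfment of dying cells, and Shoc2, a scaffold of the RAS pathway, had ratios to siNeg of -0.98 and -0.84. Mob1a, of the Hippo pathway, was at 34.29 FPKM with siDyrk2, 55.0 FPKM in the knockout, 53.88 FPKM with siNeg and 55.47 FPKM in wild type. Of the 17 genes of this group, 11 held the 7-base word. Mob1a and Shoc2 hold no form of it.

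Among metabolic and mitochondrial genes, Gpd1l, a glycerol-3-phosphate dehydrogenase, was at 2.59 FPKM with siDyrk2, 5.41 FPKM in the knockout, 6.43 FPKM with siNeg and 5.98 FPKM in wild type. Ndufa7, a subunit of respiratory complex I, was at 17.25 FPKM with siDyrk2, 32.39 FPKM in the knockout, 34.88 FPKM with siNeg and 34.55 FPKM in wild type. Tmem65, a mitochondrial membrane protein, was at 5.02 FPKM with siDyrk2, 12.37 FPKM in the knockout, 10.95 FPKM with siNeg and 12.73 FPKM in wild type. In these genes the knockout and the controls were close to each other, with siDyrk2 below them. Arsb, a lysosomal sulfatase, had ratios of -0.79 to siNeg and -1.14 to wild type, and Timm17b, of the mitochondrial inner-membrane import machinery, had ratios of -0.93 and -0.73. Over the 9 genes the median ratio was -0.86 to siNeg and -0.96 to wild type, and 7 held the 7-base word.

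The remaining 10 genes, without a shared role, had ratios to siNeg between -0.83 and -0.60, and 7 held the 7-base word in the 3′ UTR. AW551984 was at 14.7 FPKM with siDyrk2, 41.59 FPKM in the knockout, 25.68 FPKM with siNeg and 24.86 FPKM in wild type. Tmem200b was at 7.07 FPKM with siDyrk2, 16.48 FPKM in the knockout, 12.21 FPKM with siNeg and 9.91 FPKM in wild type. In both genes the knockout was the highest library, and neither holds any form of the word. The lowest of the group against siNeg was Ppfibp1, a liprin scaffold protein, at -0.83. Ipo7, a nuclear import receptor, Haus2, a subunit of the augmin complex of the spindle, and Gpn3, a small GTPase-like protein, had ratios of -0.62, -0.66 and -0.66.

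Genes of RNA interference and of the response to double-stranded RNA were examined beside the set, since an siRNA enters the first and can touch the second. Of 11 measured genes of RNA interference, 1 was at least 1.5-fold lower with siDyrk2 than with siNeg (2.1% of genes at 1 FPKM or more are). The median log2 ratio of these 11 was -0.07. The 1 gene is too few to read as a change of the list. That gene was Tnrc6b, which encodes an Argonaute partner, at 2.4 FPKM with siDyrk2, 3.68 FPKM in the knockout, 4.5 FPKM with siNeg and 3.78 FPKM in wild type, below the 5 FPKM needed to enter the set. Ago2, the Argonaute that cuts target RNA, was at 16.14 FPKM with siDyrk2, 15.18 FPKM in the knockout, 16.78 FPKM with siNeg and 16.03 FPKM in wild type, which is nearly the same level throughout. Of 11 measured genes of double-stranded RNA sensing, 3 were at least 1.5-fold higher with siDyrk2 than with siNeg (2.44% of genes at 1 FPKM or more are). In the knockout, which had no siRNA, 5 exceeded wild type by 1.5-fold or more (2.06% of genes at 1 FPKM or more are). Median log2 ratios of this list were 0.34 for siDyrk2 against siNeg and 0.41 for the knockout against wild type, beside 0.02 and -0.02 over genes at 1 FPKM or more. For siDyrk2 against wild type the median was 0.37, with 3 genes at least 1.5-fold higher (241 of 11128 genes are). For siNeg against wild type it was 0.14, with 7 genes above 0, 4 below and 1 at least 1.5-fold higher (66 of 11128 genes are). The summed macrophage markers given above were likewise higher with siDyrk2 than with siNeg and in the knockout than in wild type, and their part in this was not tested.

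Exons of 52 of the genes overlap no other annotated gene. Those of 29 genes overlap a gene on the opposite strand and those of 9 genes a gene on the same strand, so their values may include fragments of a neighbour, and no source used here states the strand setting of the counting. Ssr1, Cmtm3, Ptgfrn and Cnot6 have no such overlap, and Tmx3 overlaps 1 annotated transcript on its own strand.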

How the data were processed

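RNA was measured in 4 libraries of primary mouse embryonic fibroblasts, 1 per group. The deposited values are FPKM with 2 decimals and stand beside an exonic length per gene, per the file headers. Multiplied by that length they add up to about 1e+06 in every library, so the authors scaled FPKM to the fragments assigned to genes. Reads were handled with cutadapt 1.9.1, HISAT2 2.0.1 and the GRCm38 build, per the submitters' processing notes. Counting program, strand setting and annotation were not given in the sources used here. Of 55573 identifiers, 55394 matched GENCODE M21.

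Ratios are log2 of FPKM + 1 and understate differences of low genes. Ratios given as times, and percents of another library, use the deposited FPKM. Depth was estimated from the step that 1 fragment makes in genes of up to 200 bases, of which 98.5% to 100% then gave whole fragments within the rounding of the values. Estimated fragments (M, 1e+06) were 21.5 M (siDyrk2), 21.9 M (knockout), 20.0 M (siNeg) and 23.9 M (wild type). For ratios, 95% intervals were computed from these fragments by the exact Clopper-Pearson method, conditional on their sum, and cover counting error only. No test was made, as each group holds 1 library.

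The 3′ UTRs were read from GENCODE M21 transcripts, taking the longest per gene, which gave sequence for 7477 of 7480 tested genes. Every word of 7 bases was counted as present or absent in each 3′ UTR, and classes of genes were made by the longest form held. MicroRNA sequences are from RefSeq.

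All members could be named. Values in every library were set for the 5 markers, the 15 genes lowest in siDyrk2 against siNeg, the 8 lowest against wild type, the 5 highest in the knockout, the 5 with the highest mean and those next to each limit, and most of these are printed. Other genes printed with values, such as Trove2, Nr1d2 and Tnrc6b, were chosen after their values were seen. The members, the gene lists and the roles were chosen with earlier results of these data known. Alternatives were the pseudocount, the FPKM filter, trimmed-mean scaling, other limits, other word lengths and another choice of 3′ UTR. Python 3.11.15, pandas 2.3.3, numpy 2.4.6 and scipy 1.17.1 were used, and the scripts were tested on simulated data.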

Additional observations from a re-analysis of the deposited data

Results flagged for a closer look

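In 4 genes the knockout was at least 1.5-fold above wild type while siDyrk2 was at least 1.5-fold below siNeg, so that the effects of the 2 ways of lowering Dyrk2 had opposite signs. The log2 ratio of knockout to wild type was 0.80 for Itgbl1, 0.72 for AW551984, 0.68 for Tmem200b and 0.61 for Egfl6. Their ratios of siDyrk2 to siNeg were -0.81, -0.76, -0.71 and -0.76 in the same order of genes. The rule that chose the genes fixed the second sign. Each value rests on 1 library per group, and the difference between the effects was not tested.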

How the results depend on the processing

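The number of genes that met the rule was 87. It was 45 with a pseudocount of 5 FPKM, 10 with a 2-fold limit against siNeg, 35 when the knockout had to be above wild type, and 157 with no limit against siNeg and a 1.5-fold limit against wild type, an alternative added after the data had been seen. Under the other 7 alternatives it lay between 66 and 112. The share with the 7-base word was 80.0% among the 10 and 40.1% among the 157. The median ratio of the 87 genes with a pseudocount of 5 FPKM was -0.59 to siNeg and -0.57 to wild type. The median of the knockout against wild type, -0.02, was 0.01 under trimmed-mean scaling. All 87 ratios stayed below 0 against siNeg and against wild type under pseudocounts of 0.5 and 5 FPKM and under trimmed-mean scaling. For the 6-base word with the largest difference (GTAACA), 73.6% of the 87 genes and 24.5% of tested genes held it in the 3′ UTR. For the 8-base word GTAACAAA the shares were 47.1% and 3.06%. With the 3′ UTR of the longest coding sequence in place of the longest 3′ UTR, 52.9% of the 87 held the 7-base word, beside 7.06% of tested genes. With that choice 8 genes no longer held it, namely Abi3bp, Aebp2, Cpeb1, Gulp1, Kctd10, Larp4b, Lpgat1 and Ssr1. No paired analysis was possible because each group held 1 library, and for the same reason no library could be left out. Counting error alone gave a median half-width of 0.11 on the log2 scale for the siDyrk2 ratios of the set. Differences between cultures, siRNA delivery and cell batches cannot be told apart from the groups here.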
